A study of Mus musculus with 28 samples.

Results

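Th17n and iTreg cultures of JMJD3-deficient CD4 T cells, both kept in DFMO, were compared across all genes. The comparison used the 6 libraries labelled for this genotype and treatment, out of 28 libraries in the series. There were 3 Th17n and 3 iTreg libraries, paired by the 3 animals that gave them, and 10985 of the 20891 genes in the deposited table had enough counts to be tested. All mice were C57BL/6. The JMJD3-deficient animals carried JMJD3fl/fl CD4cre, in which loxP-flanked JMJD3 (gene symbol Kdm6b) is removed by a Cre recombinase driven from the CD4 promoter, so that the deletion is limited to cells that have switched on that promoter. Naive CD4 cells (CD44-, CD62L+, CD25-) were sorted from the spleen and activated on plates coated with 1 µg/ml of antibodies to CD3 and CD28. Th17n cultures, the non-pathogenic Th17 condition of the labels, received IL-6 at 25 ng/ml and TGF-b1 at 2 ng/ml, whereas iTreg cultures received TGF-b1 at 2 ng/ml alone. DFMO was present at 100 µM, and live cells were sorted at 68 h for full-length RNA-seq with paired reads of 75 bp. IL-6 was therefore the labelled difference between the cultures, while the deletion, DFMO and TGF-b1 were common to all 6 libraries. Untreated JMJD3-deficient cultures (3 animals) and DFMO-treated wild-type cultures (4 animals) served as references for the same contrast.

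TGF-b1 induces the transcription factor Foxp3 in activated CD4 T cells and so produces induced regulatory T cells. When IL-6 is added, STAT3 is activated, Foxp3 is held back, and the Th17 cytokine genes are switched on. DFMO irreversibly inhibits ornithine decarboxylase (Odc1), the first enzyme of polyamine synthesis, and JMJD3 is a demethylase of lysine 27 on histone H3, a mark of silenced genes.

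Promoters are shown for Il17a, Il17f, Il21 and Il23r, a subset of the Th17 cytokine and receptor genes at or near 0 in the iTreg libraries, chosen with their values known as familiar markers of the lineage. Each line gives the 150 bases upstream of a RefSeq transcription start site (GRCm38.p6), 5′ to 3′ on the gene's strand. Capitals mark matches to 4 motifs searched on both strands, namely AGGTCA (nuclear receptor half-site), TTCNNNGAA (STAT), TGANTCA (AP-1) and GCGTG (AhR core), and no matches overlapped.
Il17a, chr1:20730755-20730904, plus strand: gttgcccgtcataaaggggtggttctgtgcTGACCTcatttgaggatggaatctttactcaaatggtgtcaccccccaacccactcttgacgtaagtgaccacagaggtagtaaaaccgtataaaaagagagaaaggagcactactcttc
Il17f, chr1:20784271-20784420, minus strand: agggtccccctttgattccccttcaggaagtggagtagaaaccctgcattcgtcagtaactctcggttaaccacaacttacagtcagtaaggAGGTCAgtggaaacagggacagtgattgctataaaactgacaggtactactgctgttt
Il23r, chr6:67491856-67492005, minus strand: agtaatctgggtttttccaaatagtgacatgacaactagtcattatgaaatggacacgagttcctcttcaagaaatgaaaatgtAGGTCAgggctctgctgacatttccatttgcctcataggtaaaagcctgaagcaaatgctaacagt
Il21, chr3:37232637-37232786, minus strand: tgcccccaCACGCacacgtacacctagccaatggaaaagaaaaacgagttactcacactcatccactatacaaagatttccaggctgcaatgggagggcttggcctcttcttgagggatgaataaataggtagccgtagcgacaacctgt
A nuclear receptor half-site match lay at -120 to -115 in Il17a, at -58 to -53 in Il17f and at -66 to -61 in Il23r. Such a match was found in 8.58% of 32851 upstream windows of this length. Il21 held 1 AhR core match, at -142 to -138, a motif found in 20.5% of windows, while STAT and AP-1 matches occurred in 4.09% and 4.24% of windows and in none of these 4. A match describes the letters of the window and nothing more.

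The 6 libraries held 3406287 to 4732039 estimated counts each. Levels are given as CPM, the count scaled for library size and composition. The targeted gene Kdm6b (chromosome 11, 69398508 to 69413675) was read at 24.3, 26.7 and 33.0 CPM in the Th17n libraries and at 26.1, 19.8 and 27.6 CPM in the iTreg libraries, below the 36.0 to 63.9 CPM of the 8 wild-type DFMO libraries. Gene-level counts do not separate the deleted part of the gene from the rest. Summed CD4 T cell markers stood at 4159 to 4598 CPM in every library. The summed markers of each of the 9 other cell types on the lists reached at most 29.3 CPM. CD8 genes summed to 10.9 to 12.4 CPM in Th17n and 18.0 to 24.5 CPM in iTreg, and NK genes, mostly Klrd1 in Th17n, to 7.36 to 7.86 and 1.19 to 2.76 CPM. Blk, Lyz2, C1qa, Ncr1, S100a8 and Sox13 were at 0 in all 6 libraries. Cultures separated on component 1 of a principal component analysis of the 6 libraries (66.6% of variance), and Pearson correlations across genes were 0.975 to 0.981 within a culture and 0.924 to 0.934 between cultures. The iTreg library of animal 3 lay apart on component 2 (10.5%). In bulk RNA, fewer cells of a type and less RNA per cell cannot be told apart.

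The cultures differed broadly. A gene was called when its adjusted p was under 0.05 in edgeR's quasi-likelihood test with Benjamini-Hochberg adjustment over all 10985 genes. Log2 values are Th17n minus iTreg. Their standard error (SE) is approximate, taken as the size of the log2 value over the square root of the test's F statistic. Of the genes tested, 2656 (24.2%) were called, 1220 (11.1%) higher in Th17n and 1436 (13.1%) lower. A difference of at least 2-fold was found for 543 of the higher and 447 of the lower genes, and one of at least 4-fold for 247 and 207. The groups did not overlap for 2468 of the called genes (92.9%), against 37.1% of all genes tested. A lack of overlap in a called gene named below is thus the usual case among called genes. The median over all tested genes was -0.03, and 45.9% of the called genes were higher in Th17n. That share depended on scaling and filtering, with 1465 higher and 1094 lower genes (57.2% higher) when low counts were not filtered, and 1240 higher and 656 lower (65.4%) on the deposited TPM values, whose median over all genes was 0.07. With any 1 of the 6 libraries left out it was 52.2% to 57.6%, so lists with small differences toward iTreg are given with their range of calls.

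**Figure D1:**
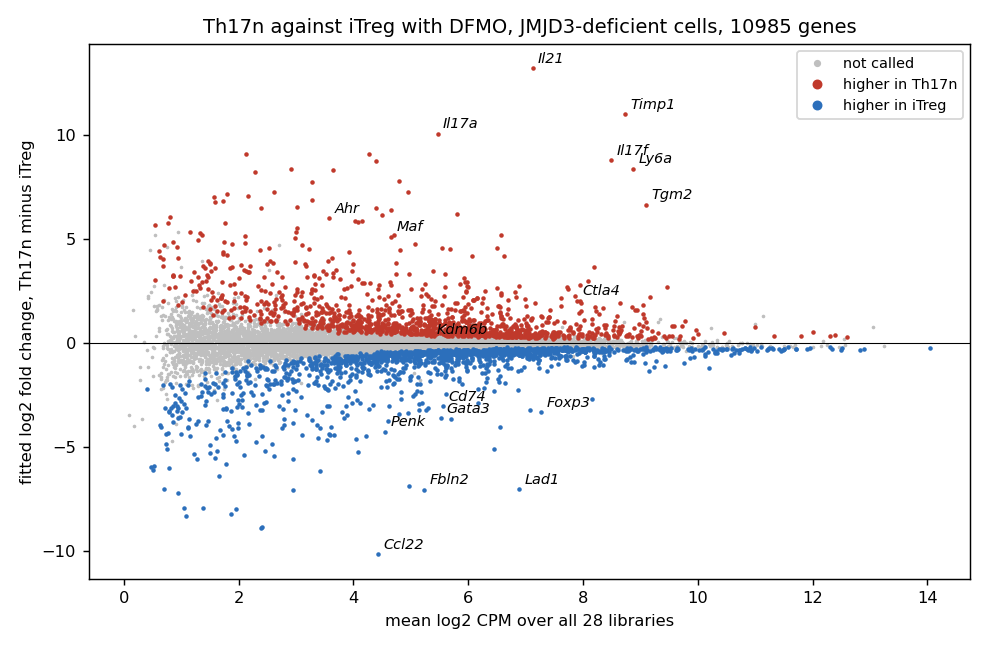
Each point is 1 of 10985 genes, with mean log2 CPM over 28 libraries on the horizontal axis and the fitted log2 fold change, Th17n minus iTreg, on the vertical axis. Red points are the 1220 genes higher in Th17n and blue points the 1436 higher in iTreg; Il21, Timp1, Il17a and Il17f sit at the top and Ccl22, Lad1 and Fbln2 at the bottom.

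Among the Th17 cytokines and secreted factors, 11 of the 14 tested genes were higher in Th17n and 2 were lower, with a median log2 difference of 4.96 (4.94 with genes at 0 in a group set to their lower bounds). Il17a, the signature cytokine of the lineage, stood at 26.5, 42.7 and 34.5 CPM in the Th17n libraries and had no count in any iTreg library. Il17f, its neighbour on chromosome 1, stood at 544, 625 and 619 CPM against 0, 2.93 and 0.614 CPM. Il21, which acts back on Th17 cells through STAT3, stood at 329, 325 and 271 CPM against 0 in all 3 iTreg libraries. No Th17n library overlapped an iTreg library for these 3 genes. Against a floor of 3 counts over the iTreg group, the Th17n level was at least 127-fold higher for Il17a and at least 1133-fold higher for Il21; floors and count intervals cover counting error only. The log2 difference of Il17f was 8.78 ± 0.35 (SE, adjusted p = 1.49e-16, edgeR). With a library or animal left out it ranged from 8.36 to 10.79, more widely than this SE.

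Il22, which acts on epithelium, varied more, at 2.47, 17.5 and 9.67 CPM in Th17n and 0 in iTreg, or at least 35.6-fold higher. The anti-inflammatory cytokine Il10 was read at 7.86, 12.1 and 13.2 CPM in Th17n and at 0, 0 and 0.307 CPM in iTreg. The chemokine Ccl20, the ligand of CCR6, was read at 51.2, 53.1 and 69.4 CPM against 0, 1.58 and 1.23 CPM (log2 difference 5.87 ± 0.39, adjusted p = 3.73e-12, edgeR). All 3 were separated between the cultures. The members lower in Th17n were Tnfsf11 (RANKL), with 11.7, 12.8 and 16.6 CPM against 105, 141 and 113 CPM, and Ltb (lymphotoxin beta), with a log2 difference of -0.98. Il9 was expressed in both cultures and was higher in Th17n, at 195 to 298 CPM against 81.1 to 146 CPM (1.24 ± 0.30, adjusted p = 0.00317, edgeR).

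**Figure D2:**
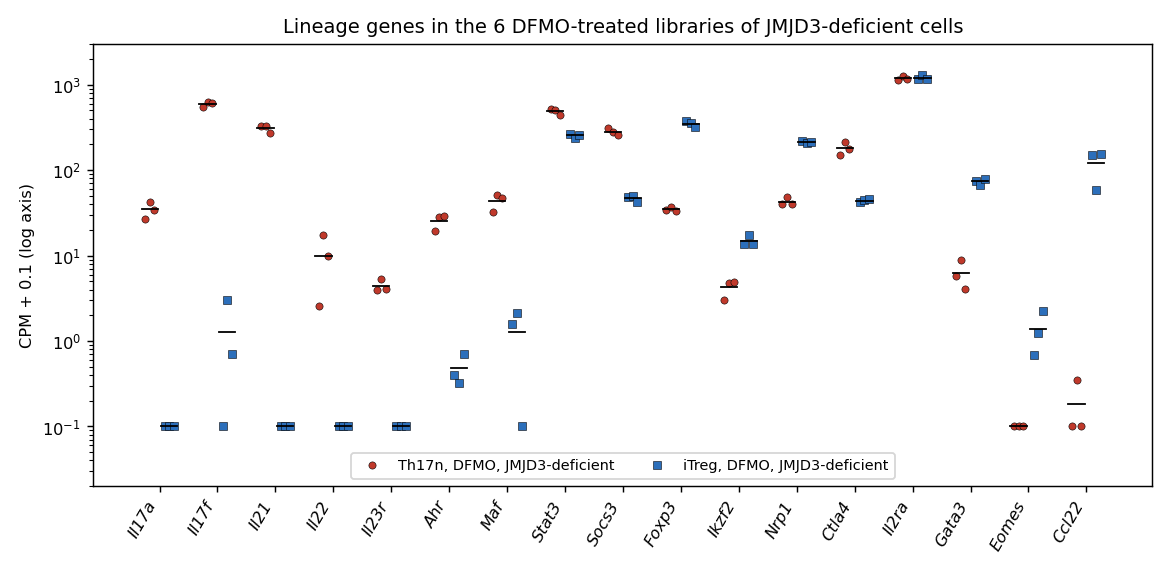
Each symbol is the level of a gene in 1 library, as CPM + 0.1 on a log axis, for 3 Th17n (red circles) and 3 iTreg (blue squares) libraries; bars are group means. Il17a, Il21, Il22 and Il23r lie at 0 (drawn at 0.1) in all iTreg libraries, Foxp3 and Nrp1 are higher in iTreg without reaching 0 in Th17n, and Il2ra lies at the same height in both.

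Of 19 transcription factors of the Th17 programme, 16 were higher in Th17n and 1 was lower (median 1.29). Ahr, the aryl hydrocarbon receptor, stood at 19.1, 28.2 and 29.0 CPM against 0.297, 0.225 and 0.614 CPM (6.00 ± 0.47). Maf, a factor for Il10 and Il21, stood at 32.6, 51.4 and 47.3 CPM against 1.48, 2.03 and 0 CPM (5.09 ± 0.30). Neither factor overlapped between the cultures. Fosl2, an AP-1 member, was higher by 3.11 ± 0.16, at 80.9 to 83.9 CPM against 9.20 to 10.1 CPM. The pioneer pair Batf and Irf4 was present in both cultures and higher in Th17n, by 1.29 ± 0.11 and 1.58 ± 0.11. Rora, a nuclear receptor, was higher by 1.72 ± 0.19. The member lower in Th17n was Rel, the NF-kB subunit c-Rel, which is used in Foxp3 induction, at 36.8, 41.0 and 34.9 CPM against 116, 115 and 104 CPM (-1.57 ± 0.15).

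Of 19 tested genes of the IL-6 and STAT3 response, 9 were higher in Th17n and 3 were lower (median 0.61). Socs3, a feedback inhibitor induced by STAT3, stood at 309, 277 and 261 CPM against 48.0, 50.2 and 42.0 CPM (2.59 ± 0.11, adjusted p = 4.57e-16, edgeR). Stat3 itself was read at 519, 500 and 443 CPM against 268, 240 and 259 CPM (0.93 ± 0.08). The receptor subunit Il6st (gp130) was higher by 0.84 ± 0.21, and the specific subunit Il6ra, at 24.9 to 28.3 CPM and 24.8 to 37.4 CPM, overlapped and was not called (-0.17 ± 0.18, adjusted p = 0.533, edgeR). The 3 lower members, the kinases Pim1 and Pim2 and the STAT5 target Cish, are also induced by IL-2. Pim1 differed between animals by more than between cultures, at 168, 48.4 and 213 CPM in Th17n and 326, 85.6 and 450 CPM in iTreg for animals 1, 2 and 3. It was lower in the Th17n library of each animal (-0.96 ± 0.13, adjusted p = 1.09e-06, edgeR), and the call was lost without the animal block (-0.99). The call of Pim2 (-0.36) was lost in 10 of 16 other settings, among them those without the animal 1 or animal 3 library of either culture (-0.30 to -0.23). Cish was no longer called without both libraries of animal 1 (-0.25).

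Of 16 tested Th17 receptor and surface genes, 6 were higher and 4 lower. Il23r, the receptor for IL-23, was low in Th17n, at 3.82, 5.19 and 3.99 CPM, and had no count in iTreg, or at least 15.9-fold higher. Il12rb1, the chain that pairs with it, was higher by 1.42. Cd5l, a lipid-binding regulator linked to the non-pathogenic Th17 state, stood at 44.7, 27.9 and 46.4 CPM against 0.89, 0.451 and 0.614 CPM (5.87 ± 0.41). Ccr6 overlapped between the cultures, at 36.2 to 42.9 CPM and 34.4 to 58.9 CPM (-0.17 ± 0.21, adjusted p = 0.613, edgeR). Lower in Th17n were Cd24a, at 10.6 to 13.3 CPM against 53.1 to 70.1 CPM (-2.43 ± 0.28), Cd160 (-3.78 ± 0.83), Il18r1 (-1.53) and Slamf6 (-1.12).

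In the Treg programme, 12 of 23 tested genes were lower in Th17n and 3 were higher, with a median of -0.39. Foxp3, the lineage factor of regulatory T cells, stood at 381, 354 and 317 CPM in iTreg and at 34.4, 37.0 and 33.2 CPM in Th17n. The groups lay far apart, and Foxp3 was read in every Th17n library. Its log2 difference was -3.33 ± 0.19 (adjusted p = 1.12e-13, edgeR). Per length, Foxp3 stood at 143 ± 19.6 TPM (transcripts scaled for length and library, SD, n = 3) in iTreg and 16.1 ± 2.80 TPM in Th17n.

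The other Treg genes did not move as a block. Penk, which encodes an opioid peptide precursor, was lower in Th17n at 0, 4.94 and 1.68 CPM against 56.3, 31.3 and 39.3 CPM (-4.26 ± 0.43). Nrp1, a surface co-receptor, was lower at 39.8, 48.6 and 40.1 CPM against 221, 208 and 215 CPM (-2.33 ± 0.18). Ikzf2 (Helios) was lower at 2.92 to 4.83 CPM against 13.5 to 17.3 CPM (-1.83 ± 0.28), as was Ebi3, a subunit of IL-35, at 19.5 to 29.0 CPM against 81.3 to 102 CPM (-1.82 ± 0.13). None of these 4 overlapped, as for 92.9% of all called genes. Ctla4, the inhibitory receptor for CD80 and CD86, went the other way, at 152, 213 and 177 CPM in Th17n against 42.1, 44.6 and 45.4 CPM in iTreg (2.03 ± 0.12, adjusted p = 2.92e-13, edgeR). Il2rb and Capg were the other members higher in Th17n, by 0.72 ± 0.08 and 0.57 ± 0.12. Il2ra (CD25) was among the most abundant of these genes in both cultures, at 1123, 1253 and 1177 CPM in Th17n and 1178, 1287 and 1178 CPM in iTreg. The ranges of Il2ra overlapped (-0.04 ± 0.06, adjusted p = 0.731, edgeR), and the sign of this uncalled difference depended on the setting, with 0.21 on the TPM scale.

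TGF-b1 was in both cultures, and 7 of 21 TGF-b response genes were higher in Th17n and 1, the receptor Tgfbr1, was lower (median 0.16). The Tgfbr1 call was lost without the animal 1 or animal 2 library of either culture, with log2 differences of -0.73 to -0.41. Tgm2, a transglutaminase and one of the most divergent abundant genes of the contrast, stood at 900, 858 and 863 CPM against 8.30, 9.46 and 8.28 CPM (6.64 ± 0.24, adjusted p = 1.14e-17, edgeR). Smad3 was higher by 1.77 ± 0.15 and the helix-loop-helix inhibitor Id2 by 2.21 ± 0.17.

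The IL-2 and STAT5 response list was divided, with 5 of 23 tested genes higher and 7 lower (median -0.04). Il2 itself stood at 180, 132 and 204 CPM in Th17n against 18.4, 11.5 and 38.7 CPM in iTreg (2.95 ± 0.38, adjusted p = 8.75e-07, edgeR). The STAT5 targets Ccnd2, at 382 to 393 CPM against 744 to 934 CPM, and Socs2, at 254 to 259 CPM against 555 to 566 CPM, were lower in Th17n by -1.15 ± 0.09 and -1.13 ± 0.12.

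Of 11 tested AhR and xenobiotic response genes, 5 were higher in Th17n and none was lower (median 1.71). Besides Ahr, these were its target enzyme Cyp1b1, at 2.92, 6.42 and 3.36 CPM against no count in iTreg (at least 15.3-fold higher), the repressors Tiparp (1.83 ± 0.17) and Ahrr (1.71 ± 0.44), and Hmox1 (2.14 ± 0.32). No library overlapped between the cultures for these 5 genes, as for 92.9% of all called genes.

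Among polyamine genes, 5 of 19 tested were higher in Th17n and 4 lower, with a median of 0.01. Smox, the spermine oxidase, differed most, at 87.8, 114 and 88.7 CPM against 22.5, 24.8 and 22.1 CPM (2.07 ± 0.14, adjusted p = 7.12e-12, edgeR). The acetyltransferase Sat1, which starts polyamine breakdown and export, was higher by 0.67 ± 0.10, and Azin1 and Oaz2, an antizyme inhibitor and an antizyme, by 0.70 ± 0.17 and 0.66 ± 0.14. Odc1, the target of DFMO, stood at 135, 156 and 188 CPM in Th17n and 114, 114 and 104 CPM in iTreg, without overlap. Its difference of 0.51 ± 0.15 (adjusted p = 0.0128, edgeR) was no longer called without the Th17n (0.47) or the iTreg (0.41) library of animal 3. Srm, the spermidine synthase, stood at 343, 383 and 423 CPM against 493, 494 and 578 CPM (-0.45 ± 0.14, adjusted p = 0.0227, edgeR), a call that was lost in 12 of 16 other settings, including each of the 6 that left out 1 library. The 4 lower calls of the list became 1 or 2 with 1 library or animal left out. Mtap, which salvages the by-product of spermidine synthesis, was lower by -0.71 ± 0.10. Spermine synthase (Sms), Oaz1, Eif5a and the enzymes that make hypusine on it, Dhps and Dohh, were not called.

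Kdm6b was not called between the cultures (0.20 ± 0.16, adjusted p = 0.437, edgeR), nor was Kdm6a, the other H3K27 demethylase, at 18.0 to 22.9 CPM and 17.2 to 20.2 CPM (0.12 ± 0.18, adjusted p = 0.696, edgeR). Of 18 JmjC demethylase genes, 4 were higher in Th17n and none lower, a share near the 24.2% of all genes called either way. Kdm5b was higher by 0.56 ± 0.12, while the smaller calls of Jmjd6 (0.35) and Kdm4c (0.55) were lost in 3 and 9 of the other settings. Without the Th17n library of animal 2 Jmjd6 stood at 0.36 and Kdm4c was uncalled as well, and Kdm4c also lost its call without the iTreg library of animal 2 or 3 (0.49 to 0.68 over the settings that left out a library or animal). Kdm5d, a Y-linked gene with an X-linked relative of similar sequence, was called at 10.6 to 17.1 CPM against 2.70 to 4.6 CPM. Its reads could not be divided between the copies with certainty, since the Y-linked genes Ddx3y and Eif2s3y were nearly absent in the same libraries. On the H3K27 methylation list 3 of 21 genes were higher and 5 lower (1 to 3 and 2 to 4 with a library or animal left out). The methyltransferase Ezh2 stood at 118, 120 and 150 CPM against 155, 194 and 202 CPM (-0.51 ± 0.10), and the PRC2 accessory subunit Aebp2 at 75.5, 82.2 and 75.7 CPM against 38.3, 40.6 and 41.4 CPM (0.96 ± 0.12).

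Genes of other helper lineages were divided. Gata3, the Th2 factor, stood at 5.62, 8.89 and 3.99 CPM in Th17n and 74.7, 67.6 and 79.5 CPM in iTreg (-3.60 ± 0.19, adjusted p = 2.04e-14, edgeR). Ccl22, a ligand of CCR4, had 1 count over the Th17n group and 152, 59.0 and 155 CPM in iTreg, a count ratio of 1536 in favour of iTreg with a 95% exact interval of 275 to 60701. Of 16 Th1 genes, 2 were higher in Th17n, Il12rb2 (2.63 ± 0.18) and Runx3 (1.43 ± 0.23), and 4 were lower. These were Eomes, at 0 in Th17n and 0.593 to 2.15 CPM in iTreg, Il18r1, and the chemokines Ccl3 (-2.54 ± 0.21) and Ccl4 (-1.20 ± 0.20). Tbx21 was at 6.91 to 12.4 CPM and 3.99 to 5.18 CPM (0.84 ± 0.55, adjusted p = 0.300, edgeR), and Ifng had no count in any of the 6 libraries. Of 15 Tfh genes, 5 were higher, among them Il21 and Cd200 (1.90 ± 0.09), and 3 were lower, among them Tox (-1.37 ± 0.19). Of 11 inhibitory receptors, 6 were higher in Th17n, including Cd5 (1.19 ± 0.09) and Lag3 (0.89 ± 0.19) beside Ctla4 and Cd200, and Cd160 was lower.

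Homing genes split without a common direction, with 6 of 24 higher and 4 lower (median -0.15). With a library or animal left out, 3 to 6 were called higher and 3 lower. Gpr15, which directs T cells to the colon, stood at 20.7, 16.3 and 18.3 CPM in Th17n and 0, 0.225 and 0 CPM in iTreg. Itga3 was higher by 5.18 ± 0.36, and Itga4, a partner in gut and endothelial homing, was lower by -1.91 ± 0.20, at 6.73 to 12.1 CPM against 26.6 to 35.3 CPM. Among naive and memory genes, 7 of 14 were higher and 5 lower (3 to 5 lower with a library or animal left out). Satb1, a chromatin organiser, stood at 196, 235 and 199 CPM against 32.3, 32.7 and 33.1 CPM (2.68 ± 0.12), and Foxp1 at 95, 114 and 131 CPM against 224, 253 and 258 CPM (-1.11 ± 0.10).

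Antigen presentation genes were mostly lower in Th17n, with 6 of 8 MHC class II genes lower and 1 higher (median -1.58). Leaving out a library or animal gave 4 to 5 lower calls, and TPM with a pseudocount of 1 gave 4. The invariant chain Cd74 stood at 3.82, 3.95 and 7.78 CPM against 38.3, 29.5 and 61.1 CPM (-3.03 ± 0.28, adjusted p = 2.39e-09, edgeR). H2-DMa, a peptide-exchange subunit, was lower by -1.75 ± 0.13. H2-Ab1, a beta chain, was opposite, at 87.8, 76.3 and 87.0 CPM against 14.2, 16.0 and 15.6 CPM (2.45 ± 0.17). B cell markers summed to 19.1 to 20.4 CPM in Th17n and 15.8 to 23.6 CPM in iTreg, and dendritic cell markers, mostly Batf3, to 22.9 to 23.7 and 20.6 to 29.3 CPM. Their part in these differences was not tested. Near-identical H2 genes can share reads.

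On the interferon-stimulated gene list, 6 of 21 tested genes were lower in Th17n and 1 higher, with a median of -0.92 (-0.68 with lower bounds). Leaving out a library or animal gave 4 to 5 lower calls. Most lower members were read at under 15 CPM, such as Ifit1 at 0.449, 0.988 and 0 CPM against 2.08, 6.98 and 6.44 CPM (-3.37 ± 0.63) and Isg20 (-2.48 ± 0.51). Gbp2, a guanylate-binding protein, was higher in Th17n, at 166, 138 and 150 CPM against 68.2, 19.4 and 68.7 CPM (1.63 ± 0.29, adjusted p = 0.000112, edgeR).

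Glycolysis and hypoxia genes were the metabolic lists with most members higher in Th17n. Of 24 glycolysis genes, 13 were higher and 1 lower (median 0.35), and of 21 hypoxia genes, 13 were higher and 1 lower (median 0.78). Hif1a, the oxygen-regulated factor, stood at 350, 316 and 266 CPM against 102, 104 and 75.8 CPM (1.73 ± 0.13, adjusted p = 2.68e-11, edgeR). Its known targets P4ha2 (2.85 ± 0.25), Egln3 (1.91 ± 0.11) and the lactate exporter Slc16a3 (1.09 ± 0.10) were higher without overlap. The glycolytic exception was the enolase Eno3, at 30.8, 26.7 and 31.1 CPM against 254, 298 and 276 CPM (-3.22 ± 0.15), and the hypoxia exception was Adm, the adrenomedullin precursor (-1.81 ± 0.27).

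Several biosynthetic and mitochondrial lists had calls mainly toward iTreg, by small amounts. Over all genes tested, 24.2% were called and 13.1% were called lower. Nuclear oxidative phosphorylation genes were called less often than genes at large. Cholesterol synthesis had 10 of 23 genes lower in Th17n and none higher (median -0.21), led by Dhcr7 at 47.6 to 60.7 CPM against 87.5 to 121 CPM (-1.07 ± 0.12). Nuclear oxidative phosphorylation genes had 7 of 35 lower and none higher (median -0.15), such as Ndufa4 (-0.62 ± 0.09), and TCA cycle genes 7 of 19 lower and 1 higher. DNA replication genes had 12 of 32 lower and none higher (median -0.24), such as Pcna, at 299 to 365 CPM against 415 to 494 CPM (-0.46 ± 0.08). Only 1 of 25 G2 and M phase genes was called. In serine and one-carbon metabolism, 7 of 20 were lower and 1 higher, and Phgdh, the first enzyme of serine synthesis, stood at 749, 754 and 761 CPM against 1702, 1719 and 1796 CPM (-1.20 ± 0.10, adjusted p = 1.91e-10, edgeR). These counts toward iTreg depended on the libraries and the scale. With a library or animal left out, 4 to 7 cholesterol, 3 to 5 oxidative phosphorylation, 3 to 5 TCA cycle, 6 to 10 DNA replication and 2 to 5 serine and one-carbon genes were called lower. On TPM with a pseudocount of 1, the corresponding counts were 2, 3, 3, 4 and 2.

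Stress lists were divided. Of 24 genes of the ATF4 response, which senses amino acid shortage, 9 were higher and 3 lower (median 0.24), with 6 to 9 higher and 1 to 2 lower when a library or animal was left out, and 13 and 1 on TPM with a pseudocount of 1. The lower calls of Nupr1 and Stc2 were lost in 9 and 10 of 16 other settings. Atf3 stood at 30.3, 29.1 and 30.7 CPM against 7.12, 12.2 and 11.7 CPM (1.54 ± 0.19), and Ddit3 (CHOP) was higher by 1.19 ± 0.14, whereas Phgdh, which is on this list too, was lower. Endoplasmic reticulum chaperones had 7 of 19 higher and 1 lower, p53 targets 1 of 17 higher and 5 lower, and immediate early and NF-kB targets 6 of 23 each way, with Nr4a3 lower by -1.89 ± 0.15. Fatty acid oxidation had 3 of 20 higher and 5 lower, ribosome biogenesis 1 of 29 higher and 5 lower, and heat shock genes 0 of 10 higher and 1 lower. Among all genes tested 24.2% were called, a larger share than on the ribosome biogenesis and heat shock lists. With a library or animal left out, the lower calls numbered 2 to 3 for p53 targets and for fatty acid oxidation, 1 to 3 for ribosome biogenesis and 3 to 6 for immediate early and NF-kB targets.

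**Figure D3:**
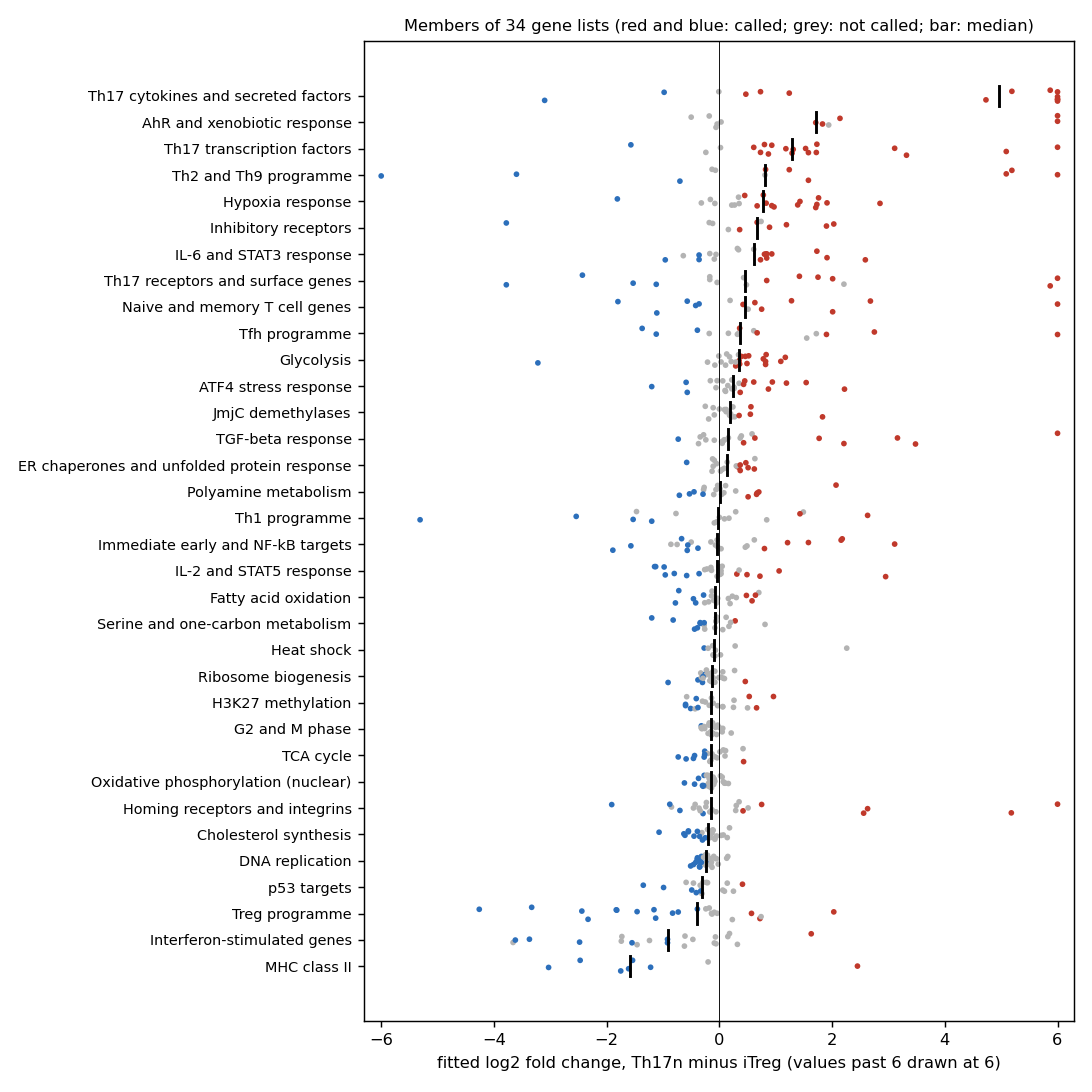
Each row is 1 of 34 gene lists, sorted by median (black bar), and each point is a tested member placed by its fitted log2 fold change, Th17n minus iTreg, with values past 6 drawn at 6. Red and blue points are members called higher and lower; Th17 cytokines have the highest median (4.96) and MHC class II genes the lowest (-1.58).

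The genes with the largest called differences and a mean of at least 10 CPM included several that are on none of the lineage lists. Higher in Th17n were Timp1, an inhibitor of matrix metalloproteinases, at 446, 390 and 478 CPM against 0, 0.451 and 0 CPM, and the surface antigen Ly6a (Sca-1), at 540, 431 and 602 CPM against 1.78, 0.676 and 2.45 CPM. With 2 iTreg counts, the count ratio of Timp1 was 2439 (95% exact interval 675 to 20144), and the log2 difference of Ly6a was 8.36 ± 0.58. The leukotriene B4 receptor Ltb4r1, the mucin-like protein Pdpn (6.49 ± 0.50), Serpinb1a, Serpinf1 (6.21 ± 0.27) and Lbp (6.15 ± 0.38) were each at 23.1 CPM or more in every Th17n library and at 2.15 CPM or less in every iTreg library. Ly6 and Ctla2 genes have close copies that can share reads.

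Higher in iTreg, besides Ccl22, were Lad1, an anchoring filament protein, at 220, 169 and 213 CPM against 2.02, 1.23 and 1.26 CPM (-7.03 ± 0.24), and the matrix protein Fbln2, at 76.5, 108 and 70.0 CPM against 0.674, 0.988 and 0.210 CPM (-7.04 ± 0.30). The axonemal genes Dnah7a (-6.88 ± 0.39) and Drc1 (-5.56 ± 0.40), which build motile cilia, were both on this side, as were the cytotoxic granule gene Nkg7 (-5.10 ± 0.38), the granzyme B inhibitor Serpinb9 (-4.60 ± 0.37), the steroid-metabolising enzyme Akr1c18 (-4.64 ± 0.48), the transcription factor Spib (-4.57 ± 0.39) and the interferon-inducible neighbours Mndal (-5.21 ± 0.35) and Ifi203 (-4.47 ± 0.39), whose sequences are similar. None of these genes overlapped between the cultures, as for 92.9% of all called genes. The 24 genes with the largest called differences kept their call and direction in every other setting run. They had been chosen from the same libraries for a large called difference with the same direction in each animal. Their kept direction therefore follows largely from that choice and is not a separate test.

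The contrast was then compared with that in untreated JMJD3-deficient cultures of the same 3 animals. The difference of the contrasts (DFMO minus untreated) was called for 871 of 10985 genes (7.93%), 350 of them upward (3.19%) and 521 downward (4.74%). On TPM with a pseudocount of 1, 513 were upward and 300 downward. The contrast was smaller in size, whatever its sign, with DFMO for 687 of these genes and larger for 184. Its fitted sign was opposite with and without DFMO for 355 of the 871. Of these, 116 were also called between the cultures with DFMO. For the others the contrast with DFMO was not called, so its sign is uncertain and they cannot be read as reversals. Foxp3 was among those with a smaller contrast. In Th17n it stood at 8.23, 8.34 and 3.77 CPM without DFMO and at 34.4, 37.0 and 33.2 CPM with it, while iTreg libraries had 259 to 342 CPM without and 317 to 381 CPM with DFMO. The Foxp3 contrast was thus -5.58 ± 0.25 without and -3.33 ± 0.19 with DFMO, a difference of 2.25 ± 0.35 (adjusted p = 0.000118, edgeR). Nrp1 followed the same course, at 5.03 to 9.31 CPM in untreated Th17n and 39.8 to 48.6 CPM with DFMO (difference 1.78 ± 0.33). The Treg programme as a list did not, with 4 of 23 tested genes called upward and 8 downward (median -0.06). With 1 library left out, 4 to 5 were called upward and 5 to 7 downward.

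The STAT3 and STAT5 lists had differences mostly downward. Of 19 IL-6 and STAT3 genes, 8 were called downward and 1 upward, and of 23 IL-2 and STAT5 genes, 11 downward and 2 upward. With 1 library left out, 5 to 7 and 5 to 9 were called downward. The Socs3 contrast was 4.05 ± 0.12 without DFMO and 2.59 ± 0.11 with it, as Th17n libraries stood at 576 to 610 CPM and 261 to 309 CPM (difference -1.46 ± 0.16, adjusted p = 1.19e-06, edgeR). For Pim2 the contrast changed sign, from 0.96 ± 0.10 to -0.36 ± 0.11, and for Tnfrsf9 (4-1BB) from 0.94 ± 0.12 to -0.83 ± 0.13. Tnfrsf9 stood at 857 to 1020 CPM in untreated Th17n and 71.2 to 104 CPM with DFMO, against 469 to 501 and 134 to 179 CPM in iTreg. The Il2ra contrast was 0.71 ± 0.06 without DFMO (difference -0.75 ± 0.09). Stat5a went from 1.12 ± 0.11 to -0.22, a difference of -1.34 ± 0.16. The 1 upward STAT3 list member was Ifi27l2a, an interferon-induced gene, which stood at 809 to 924 CPM in untreated iTreg and 65.3 to 107 CPM with DFMO.

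Other lists had differences upward. DNA replication had 14 of 32 genes called upward and none downward, and G2 and M phase 5 of 25 and none. With 1 library left out, 12 to 16 and 2 to 9 were called upward. The replication licensing gene Cdc6 stood at 25.8 to 33.5 CPM in untreated Th17n and 64.1 to 74.4 CPM in untreated iTreg, and with DFMO at 107 to 125 and 120 to 126 CPM, so that the ranges overlapped only with DFMO (difference 1.12 ± 0.20, adjusted p = 0.000585, edgeR). Rrm2, a subunit of ribonucleotide reductase, followed the same course (0.95 ± 0.14). Of 24 ATF4 genes 10, and of 20 serine and one-carbon genes 8, were called upward and none downward (7 to 13 and 6 to 8 upward with 1 library left out). Chac1, a glutathione-degrading enzyme, had a contrast of -1.23 ± 0.18 without DFMO and 0.94 with it (difference 2.17 ± 0.26), Asns, asparagine synthetase, -0.61 ± 0.10 and 0.43 (1.04 ± 0.14), and the mitochondrial folate enzyme Mthfd2 -0.87 ± 0.08 and -0.06 (0.81 ± 0.11). Of 15 Tfh genes 5 were called upward, led by Slamf6, which stood at 4.77 to 6.79 CPM in untreated Th17n and 22.2 to 41.8 CPM with DFMO (2.56 ± 0.33).

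Ctla4 and Tgm2 were genes whose contrast was larger with DFMO. Ctla4 stood at 150 to 186 CPM in untreated iTreg and 42.1 to 45.4 CPM with DFMO, against 258 to 335 and 152 to 213 CPM in Th17n (difference 1.10 ± 0.16, adjusted p = 6e-05, edgeR). Tgm2 stood at 92.1 to 103 CPM and 8.28 to 9.46 CPM in iTreg (2.68 ± 0.30). The largest downward differences of abundant genes were Gipr, at 83.2 to 95.3 CPM in untreated Th17n and 1.80 to 4.20 CPM with DFMO, Crispld2 (-4.39 ± 0.28), Adm (-4.16 ± 0.40) and the complement gene C3 (-3.71 ± 0.50). Inhba met the same rule, but its untreated contrast has no iTreg count to rest on, so no size is given. It stood at 30.2 to 44.0 CPM against no count in untreated iTreg and 91.6 to 105 against 1.35 to 7.06 CPM with DFMO. Upward, the largest were Ccl3 (3.94 ± 0.92), Xaf1 (3.36 ± 0.69), Ccl5 (3.15 ± 0.69), Tead1 (3.06 ± 0.53) and Ccl20 (2.95 ± 0.81). The Ccl20 call was lost without any 1 of the 3 untreated iTreg libraries, the untreated Th17n library of animal 3 or the DFMO iTreg library of animal 1 (2.55 to 3.09). The Inhba call was lost without any 1 of the untreated iTreg libraries or the DFMO iTreg library of animal 3, and on TPM with a pseudocount of 1. Gipr kept its call in every other setting, but its difference ranged from -8.74 to -5.22 with 1 library left out. Ccl3 was not called without the untreated Th17n library of animal 3 (3.25) or without the animal block (3.88, adjusted p = 0.0559, edgeR). Tead1 was not called on TPM, nor was Ccl5 with a pseudocount of 0.1. Il17a stood at 58.5 to 105 CPM in untreated Th17n and at 0 in untreated iTreg; for genes with no count in either iTreg group the difference of contrasts cannot be estimated. For Il17f (-1.33 ± 1.12, adjusted p = 0.553, edgeR) it was not called.

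**Figure D4:**
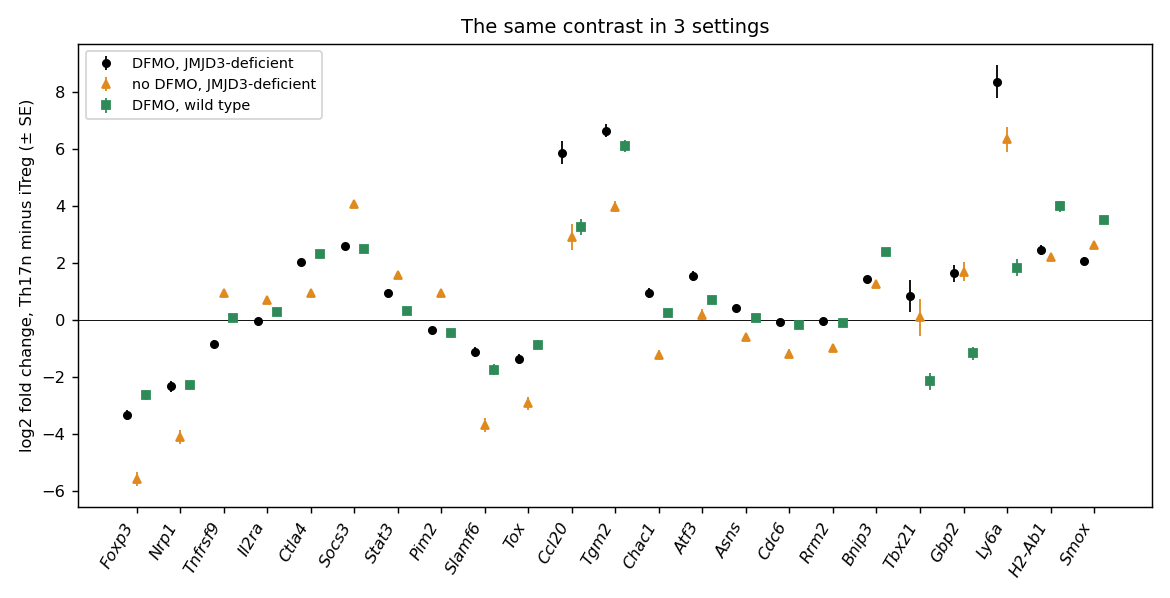
Points are the log2 fold change, Th17n minus iTreg, ± SE for 23 genes with DFMO in JMJD3-deficient cells (black circles), without DFMO in JMJD3-deficient cells (orange triangles) and with DFMO in wild-type cells (green squares). Foxp3 lies at -3.33, -5.58 and -2.63, and Tbx21 and Gbp2 lie below 0 in wild-type cells and close to or above 0 in JMJD3-deficient cells.

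Finally, the contrast was compared with that in DFMO-treated wild-type cultures. The difference of contrasts (JMJD3-deficient minus wild type) was called for 46 genes (0.419%), 25 upward (0.228%) and 21 downward (0.191%), and for 890 genes at an unadjusted p under 0.05. Foxp3 was not called (-0.69 ± 0.24, adjusted p = 0.312, edgeR), except with no filter on low counts (-0.70, adjusted p = 0.00196, edgeR). None of Il17f, Ctla4, Odc1 or Srm was called. Their wild-type contrasts were -2.63 ± 0.16 for Foxp3 and 2.30 ± 0.10 for Ctla4.

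On the Th1 list, 3 of 16 tested members were called upward (median difference 0.99 against 0.01 over all genes), with 1 to 4 when 1 library was left out and 0 to 4 in the other settings. On the interferon-stimulated gene list, 2 of 21 were called upward (median 0.28), with 1 to 3 and 1 to 5. The genes described next include several on neither list, which were chosen after their values were seen. Ly6a was at 0.676 to 2.45 CPM in JMJD3-deficient iTreg but at 190, 24.6, 228 and 31.2 CPM in wild-type iTreg (animals 1 to 4), with 431 to 602 and 278 to 452 CPM in Th17n. The Ly6a contrast was 1.84 ± 0.30 in wild type, a difference of 6.52 ± 0.71 (adjusted p = 1.31e-05, edgeR). Tbx21, encoding the Th1 factor T-bet, stood at 3.99 to 5.18 CPM in JMJD3-deficient iTreg and at 138, 83.0, 162 and 119 CPM in wild-type iTreg (difference 2.99 ± 0.62, adjusted p = 0.0192, edgeR). Gbp2 was higher in Th17n than in iTreg in each JMJD3-deficient animal and lower in each wild-type animal, where iTreg libraries stood at 157, 199, 126 and 238 CPM (2.80 ± 0.38, adjusted p = 0.00044, edgeR). Gbp4 (1.83 ± 0.34), Ube2l6 (1.80 ± 0.33), Tapbp (0.77 ± 0.16), H2-T23 (0.77 ± 0.18) and Pml (0.70 ± 0.16) were called in the same direction. Ifng itself was read at 61.8, 0.889, 76.3 and 12.1 CPM in wild-type iTreg, with no count in JMJD3-deficient iTreg or Th17n. In wild-type iTreg, Ifng, Ly6a and Tbx21 were thus each highest in animals 1 and 3, whereas Gbp2 was lowest in those animals. Whether Ifng has a part in the other differences was not tested.

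Receptor chains and a signal transducer of the Th17 and Th1 pathways were also called upward. Il12rb2 had a contrast of 2.63 in JMJD3-deficient and 1.24 ± 0.15 in wild-type cells (1.39 ± 0.24), Il12rb1 1.42 and 0.65 ± 0.10 (0.76 ± 0.16). Stat3 stood at 240 to 268 CPM in JMJD3-deficient iTreg and 353 to 386 CPM in wild-type iTreg, with 443 to 519 and 438 to 478 CPM in Th17n (0.63 ± 0.11, adjusted p = 0.00442, edgeR). Ccl20 was called too (2.61 ± 0.58), on iTreg levels of 0 to 1.58 CPM and 0.593 to 7.21 CPM.

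Downward, Smox had a contrast of 3.50 ± 0.14 in wild type against 2.07 in JMJD3-deficient cells, with iTreg levels of 6.61 to 11.8 CPM and 22.1 to 24.8 CPM and Th17n levels that overlapped (-1.43 ± 0.21, adjusted p = 0.000769, edgeR). H2-Ab1 (-1.54 ± 0.28) and the mitophagy receptor Bnip3 (-0.97 ± 0.16) were likewise read higher in JMJD3-deficient than in wild-type iTreg. Gpr83, a receptor abundant in regulatory T cells, was higher in Th17n than in iTreg in all 4 wild-type animals, at 117 to 135 CPM against 49.8 to 69.8 CPM, whereas in JMJD3-deficient cells the ranges overlapped, at 73.8 to 91.1 and 85.8 to 96.3 CPM (-1.20 ± 0.18). Sytl1 had no called contrast in wild type and was lower in Th17n in all 3 JMJD3-deficient animals (-1.35 ± 0.20), and Trp53i11 (-1.16 ± 0.20), Tnfrsf9 (-0.91 ± 0.18) and Foxp1 (-0.76 ± 0.13) were called downward. The calls of Ly6a, Gbp2, Sytl1, Gpr83 and Bnip3 held in every other setting run. Those of Tbx21, Gbp4, Il12rb1, Ccl20, Tapbp, H2-T23, Pml and Tnfrsf9 were lost in 5 or more of the 21 settings. The Tbx21 call was lost without the Th17n library of JMJD3-deficient animal 1 (2.63) or 2 (3.10) or the iTreg library of animal 1 (2.92) or 3 (2.84), with adjusted p up to 0.150 in edgeR, and without the animal block (2.77, adjusted p = 0.258). The Gbp4 call was lost without the JMJD3-deficient iTreg library of animal 2 (1.5) or Th17n library of animal 3 (1.77), and that of Ube2l6 without the Th17n library of animal 1 (1.65). For Tnfrsf9 these were the JMJD3-deficient Th17n libraries of animals 1 and 3 and the iTreg library of animal 3, and for Il12rb1 each JMJD3-deficient Th17n library and the iTreg library of animal 2. Ccl20, Tapbp, H2-T23 and Pml lost their calls without any 1 of 9 to 12 of the 14 libraries. Il12rb2 was not called without the animal block, nor Smox and Foxp1 on TPM. With only the groups compared, Il12rb2, H2-Ab1, Stat3 and Trp53i11 were not called (adjusted p of 0.0545 to 0.0567, edgeR). Genotype was compared between animals, the labels name no litter or batch, and the 2 genotypes therefore cannot be told apart from any such difference.

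**Figure D5:**
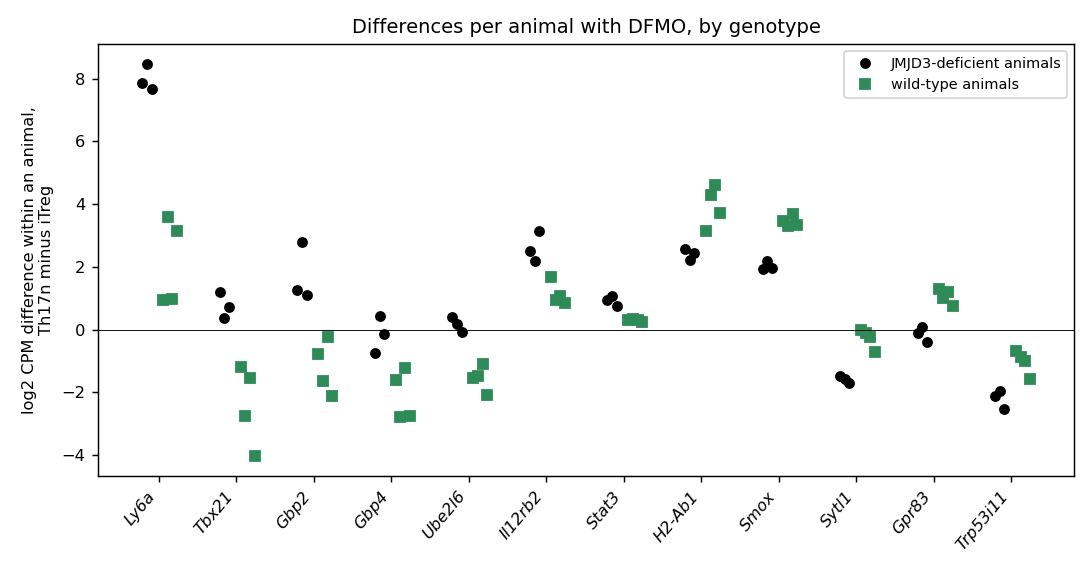
Each point is the within-animal difference in log2 CPM, Th17n minus iTreg with DFMO, for 3 JMJD3-deficient (black circles) and 4 wild-type animals (green squares), for 12 genes called in the genotype comparison. All but Il12rb2 and Stat3 were chosen by a rule that required the genotypes not to overlap. Ly6a lies at 7.66 to 8.48 in JMJD3-deficient and 0.95 to 3.59 in wild-type animals, and for Gbp2 the genotypes lie on opposite sides of 0.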

How the data were processed

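Bulk RNA-seq was deposited by the authors as estimated counts per gene and as TPM, both from kallisto with GRCm38 per the submitters' processing notes; its version and the way transcripts were summed to genes are not given in the sources used here. Whole numbers, within 0.001, made up 67.2% of the estimated count values. Strand was not used, so overlapping genes cannot be told apart. Gene names were matched to mouse symbols (20837 of 20891), and positions came from GENCODE M21.

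Rounded counts of all 28 libraries entered 1 edgeR fit (version 4.0.16, R 4.3.3), with 8 group means, the animal as a block, TMM scaling and edgeR's filter on low counts (15 residual and 11.4 prior degrees of freedom, dispersion 0.012). The block rests on the animal label, and each animal gave 4 libraries. Deviations from group means correlated at 0.11, 0.07 and 0.13 within animals and -0.10 to -0.01 between them. Genes named are a standing set (Kdm6b, Odc1, Srm, Il17a, Il17f, Il23r, Foxp3, Il2ra, Ctla4, and 1 other gene), and up to 4 members of smallest adjusted p per list. To these came the 12 largest called changes each way with a mean of at least 10 CPM and the same direction in the 3 animals. For each difference of contrasts, the 5 largest called each way with that mean were added. Between treatments these also had to have the same direction in the 3 animals. Between genotypes the animals' differences had to lie without overlap, so the separation of the genotypes in those genes follows from their choice. Other members and interaction genes were added after their values were seen. Some genes without an approved symbol (47 called) are counted only, and a few genes are not reported here. Members and the 34 pathway and 10 cell type lists (799 of 816 entries matched) were chosen with earlier results of these data known. Per-animal log2 CPM used a prior count of 2.

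The fit was tested on simulated counts over 10985 genes without an animal effect. In these, 66 or 67 genes per fold size were changed, all drawn from genes above a set mean level. It recovered 46.3%, 83.6% and 97.0% of 1.5-, 2- and 4-fold changes in the contrast. The shares were 13.4%, 50.7% and 93.9% in the comparison with untreated cultures, and 20.9%, 65.7% and 86.4% in that between genotypes. Unchanged genes called numbered 11 in the contrast and 2 in each comparison. Recovery in genes below that level was not tested. Alternatives were no block, RLE scaling, no filter, only the groups compared, the deposited TPM (limma 3.58.1, pseudocount 1 or 0.1), DESeq2 1.42.0, and leaving out libraries or animals. Exact intervals cover 95% of counting error.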

Additional observations from a re-analysis of the deposited data

Results flagged for a closer look

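The contrast between Th17n and iTreg differed between JMJD3-deficient and wild-type DFMO cultures, by a test of the difference itself (edgeR, 46 of 10985 genes), for the genes named above. Upward log2 differences were 6.52 for Ly6a, 2.99 for Tbx21, 2.80 for Gbp2, 2.61 for Ccl20, 1.83 for Gbp4, 1.80 for Ube2l6, 1.39 for Il12rb2, 0.77 for Tapbp and H2-T23, 0.76 for Il12rb1, 0.70 for Pml and 0.63 for Stat3. Downward differences were -1.54 for H2-Ab1, -1.43 for Smox, -1.35 for Sytl1, -1.20 for Gpr83, -1.16 for Trp53i11, -0.97 for Bnip3, -0.91 for Tnfrsf9 and -0.76 for Foxp1. The calls of H2-T23, Pml, Ccl20 and Tapbp were lost in 16, 15, 14 and 13 of 21 other settings. Those of Il12rb1, Tbx21, Gbp4 and Tnfrsf9 were lost in 7, 6, 6 and 5. Only the calls of Ly6a, Gbp2, Sytl1, Gpr83 and Bnip3 held in every setting.

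It differed between DFMO-treated and untreated JMJD3-deficient cultures, by the same kind of test (871 genes). Upward differences were 3.94 for Ccl3, 3.36 for Xaf1, 3.15 for Ccl5, 3.06 for Tead1, 2.95 for Ccl20, 2.68 for Tgm2, 2.56 for Slamf6, 2.49 for Ccl4, 2.25 for Foxp3, 2.21 for Il2, 2.17 for Chac1, 1.83 for Ifi27l2a, 1.78 for Nrp1, 1.55 for Tox, 1.36 for Atf3, 1.19 for Slc1a4, 1.12 for Cdc6, 1.10 for Ctla4, 1.04 for Asns and Trib3, 0.95 for Rrm2 and 0.81 for Mthfd2. Downward differences were -5.77 for Gipr, -4.39 for Crispld2, -4.16 for Adm, -3.71 for C3, -1.77 for Tnfrsf9, -1.46 for Socs3, -1.34 for Stat5a, -1.32 for Pim2, -0.75 for Il2ra and -0.66 for Stat3. The Gipr difference ranged from -8.74 to -5.22 with 1 library left out. For Inhba the fitted value was -5.52, which depends on the prior count because untreated iTreg libraries had no count, and its call was lost in 5 of 19 other settings. The Stat3 call was lost on TPM with either pseudocount (-0.46) and that of Ccl5 on TPM with a pseudocount of 0.1 (3.32). The Il2 call was lost in 9 of 19 other settings (1.58 without the untreated Th17n library of animal 3) and that of Trib3 without that same library.

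Among 40 groups of 4 wild-type libraries checked for a single library standing apart, 1 was found, Foxp1 in DFMO-treated iTreg, whose lowest library was at 172 CPM beside 215 to 218 CPM in the others. Chance alone marks about 1 in 20 such groups.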

How the results depend on the processing

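With 3 animals per culture, changes under 2-fold were recovered less often. The 2656 genes called between the cultures became 1686 to 1813 without both libraries of an animal, the lowest without animal 1, 1909 to 2048 without 1 library and 1892 to 2892 in the other settings; leaving samples out leaves fewer to test. On the TPM scale 65.4% of calls were higher in Th17n, against 45.9%. Without the replicate block the count was 2274 and in DESeq2 2403. The 46 genes called between genotypes became 21 without the replicate block, 166 with no filter, 12 with only the groups compared, 29 on TPM with pseudocount 1, and 19 to 51 when 1 library was left out. The 871 genes called between DFMO and untreated cultures stayed at 590 to 1110, with 648 without the replicate block; without the filter the calls were 477 upward and 489 downward, and on TPM 513 and 300. The block changed no other count by over 1.5 times. Only uncalled members of the standing set changed sign. Il2ra between the cultures was 0.03 with no filter, 0.21 on TPM and -0.05 to 0.03 with a library or animal left out. Between genotypes, Odc1 was -0.02 on TPM and Il17f 0.16 and 0.39 on TPM; with 1 library left out Kdm6b ranged from -0.04 to 0.18, Odc1 from -0.06 to 0.23, Srm from -0.13 to 0.21, Il17f from -0.94 to 1.45 and Il23r from -0.10 to 0.21. Between treatments, Srm was 0.01 with no filter and 0.07 and 0.08 on TPM, and Il23r -0.38 and -0.03 on TPM; with 1 library left out Kdm6b ranged from -0.05 to 0.32, Odc1 from -0.04 to 0.20, Srm from -0.20 to 0.19, Il17f from -1.78 to 0.64 and Il23r from -0.79 to 2.97. Il23r had no count in JMJD3-deficient iTreg with DFMO. Its fitted values in both comparisons therefore depend on the prior count or pseudocount and are not measured changes of sign. Foxp3 (-0.70, no filter) and Il2ra (-0.30, DESeq2) were called between genotypes only in those settings.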
